A study of Homo sapiens with 6 samples.

Results

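The proteasome genes were taken from a table of gene counts by name: every symbol that starts with PSMA, PSMB, PSMC, PSMD, PSME, PSMF or PSMG and a number, and POMP. Of 61517 genes in the table, 99 rows carried such a name. Of these, 42 pseudogene rows and 6 antisense or divergent transcript rows were dropped, and 2 more had a mean under 1 CPM, the usual unit of counts scaled to the library total. The remaining 49 genes are the members, and all 49 passed the filter on low counts that left 14051 genes for testing. The names hold 5 members that interferon induces, PSMB8, PSMB9, PSMB10, PSME1 and PSME2, which were set against the other 44. Names alone brought in PSMC3IP, a recombination factor, and PSME3IP1, which binds an activator. Just above the floor of 1 CPM lay PSMG4 at 1.63 and PSMC3IP at 2.91 CPM. Below it, the thymus form PSMB11 had 1 count in all libraries together and the testis form PSMA8 had 0, which allows up to 0.122 to 0.169 CPM in a library.

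RNA was measured in THP-1 cells, an established human monocytic leukaemia line. Per the series' design text, all cells were differentiated into macrophages and given lipopolysaccharide (LPS) and ATP to induce pyroptosis, a lytic inflammatory cell death. The 3 control libraries came from cells with no further treatment, and 3 came from cells that also received ruxolitinib, a JAK1 and JAK2 kinase inhibitor whose name the treatment field spells Lukotinib. The sources used here give neither dose nor times, and unstimulated cells were not analysed here. Total counts per library ran from 17757595 to 24533979, and the members took 0.520% to 0.558% of them. Of 10 monocyte and macrophage markers, 8 fell with ruxolitinib and LYZ rose, and MRC1 was too low to test. By the same test, described below, 16.1% of all genes were called lower and 13.6% higher. The summed level of the 10 markers was 2066 to 2116 CPM in control and 1375 to 1418 CPM with ruxolitinib. The part of this in the results on the members was not tested. Of 4 T cell markers, CD3D and CD3E were at 0 in every library, CD2 was at 0 in 4 of 6, and TRAC, the T cell receptor alpha constant gene, had 5.597 to 6.36 CPM in control and 4.55 to 5.90 CPM with ruxolitinib and did not pass. In such bulk samples of a cell line, fewer cells in a given state and less RNA per cell cannot be told apart.

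The proteasome degrades proteins tagged with ubiquitin. Its core particle is a barrel of stacked rings of alpha and beta subunits, with the catalytic sites on the beta subunits PSMB5, PSMB6 and PSMB7, and a regulatory cap made of PSMC ATPases and PSMD subunits unfolds the substrate. Interferon induces PSMB8, PSMB9 and PSMB10, which take the places of PSMB5, PSMB6 and PSMB7 in newly built cores, and PSME1 and PSME2, which form an activator ring on the barrel. The resulting immunoproteasome is known for producing peptides for MHC class I, and the peptides enter the endoplasmic reticulum through the TAP1 and TAP2 transporter. STAT2 and IRF9, which help carry the interferon signal from the JAK kinases, act through a DNA element called the interferon-stimulated response element (ISRE).

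The starts of the inducible genes are shown because 4 of the 5 share an identical run of letters there. Sequences come from RefSeq on GRCh38.p14, in windows from 250 bases before to 50 bases after an annotated start. Of the 49 members, 43 have a window in this table and 6 have none. Each stretch below runs from 100 bases before the start to base 20 after it, read 5′ to 3′ on the strand of the gene, and capitals mark matches to the ISRE core, GAAA, any 2 bases and GAAA again, searched on both strands like every motif here. On the opposite strand the core reads TTTC, any 2 bases and TTTC.
PSMB8 (chr6:32844028-32844147, minus strand): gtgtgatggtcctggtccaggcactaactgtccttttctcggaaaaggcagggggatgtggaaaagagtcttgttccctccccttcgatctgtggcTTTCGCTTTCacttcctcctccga
PSMB10 (chr16:67936831-67936950, minus strand): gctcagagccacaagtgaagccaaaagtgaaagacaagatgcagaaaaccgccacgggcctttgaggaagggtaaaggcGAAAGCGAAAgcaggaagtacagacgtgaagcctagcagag
PSME1 (chr14:24136094-24136213, plus strand): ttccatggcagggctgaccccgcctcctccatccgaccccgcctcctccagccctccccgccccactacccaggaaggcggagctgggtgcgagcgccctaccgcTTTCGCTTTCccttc
PSME2 (chr14:24146591-24146710, minus strand): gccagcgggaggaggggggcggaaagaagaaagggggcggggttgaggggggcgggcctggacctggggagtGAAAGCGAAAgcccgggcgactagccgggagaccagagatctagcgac
PSMB9 (chr6:32854092-32854211, plus strand): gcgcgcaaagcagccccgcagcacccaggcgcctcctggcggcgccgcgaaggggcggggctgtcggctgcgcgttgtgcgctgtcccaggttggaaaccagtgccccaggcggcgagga
The match began 28 bases before the start in PSME2, 21 before it in PSMB10 and 4 before it in PSMB8, and at base 6 after it in PSME1. No match was found in the window of PSMB9.

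In all 4 genes the matched letters were GAAAGCGAAA, read on the gene's own strand in PSMB10 and PSME2 and on the other in PSMB8 and PSME1. This exact form was looked up after the matches were seen. It occurred in windows of 34 of 27305 genes (0.125%), while the looser core occurred in 4.38% of genes. Among 38 other members with a window, 3 had the looser core, PSMA4, PSMB4 and PSMG4, and only PSMG4, a core assembly chaperone, had the exact form. The STAT element known as GAS, searched as TTCNNNGAA, occurred in 1 of the 5 inducible genes (PSMB8), in 6 of the 38 others and in 9.38% of all genes. The core of the antioxidant element used by the NFE2L1 and NFE2L2 factors, searched as TGACNNNGC, occurred in 3 of the 5, in 12 of the 38 (31.6%) and in 16.1% of all genes. The CCAAT box occurred in 1 of the 5, in 20 of the 38 (52.6%) and in 39.7% of all genes. Of the 43 members, 10 have more than 1 window, which gives a motif more chances. A match describes letters only.

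In RefSeq, PSMB9 starts 488 bases from the nearest annotated start of TAP1, which runs the other way. The GENCODE span of PSMB9 begins further upstream, beside PSMB8. The window of that TAP1 start held 2 overlapping ISRE core matches, placed 354 and 360 bases before the PSMB9 start, and the TAP2 window held 1. They are shown because these genes lie beside PSMB8 and PSMB9.
TAP1 (chr6:32853803-32853858, minus strand): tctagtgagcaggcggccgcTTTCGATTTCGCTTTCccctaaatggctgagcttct
TAP2 (chr6:32838768-32838817, minus strand): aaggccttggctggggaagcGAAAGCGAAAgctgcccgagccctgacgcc
Both stretches contain the exact form GAAAGCGAAA, on the other strand in TAP1.

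All 5 interferon-inducible members fell with ruxolitinib, and most other members did not pass the test. Levels are CPM over library totals scaled with edgeR's TMM factors. Fold changes are ruxolitinib over control, with standard errors (SE), from edgeR's quasi-likelihood test with Benjamini-Hochberg adjustment over all 14051 genes. A member is called at an adjusted p under 0.05. Across all genes tested, 16.1% were called lower and 13.6% higher, 29.7% in all, with a median log2 fold change of -0.01. Of the 5 inducible members 5 were called lower, with a median of -0.59. Of the other 44 members 2 were called lower and 7 higher, and 35 did not pass, with a median of 0.08. In 17 alternative analyses the 5 inducible members were called lower in every one. The labels do not state whether a group's libraries were grown as separate cultures, so p-values reflect only how these samples vary, and that variation may be technical.

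**Figure D1:**
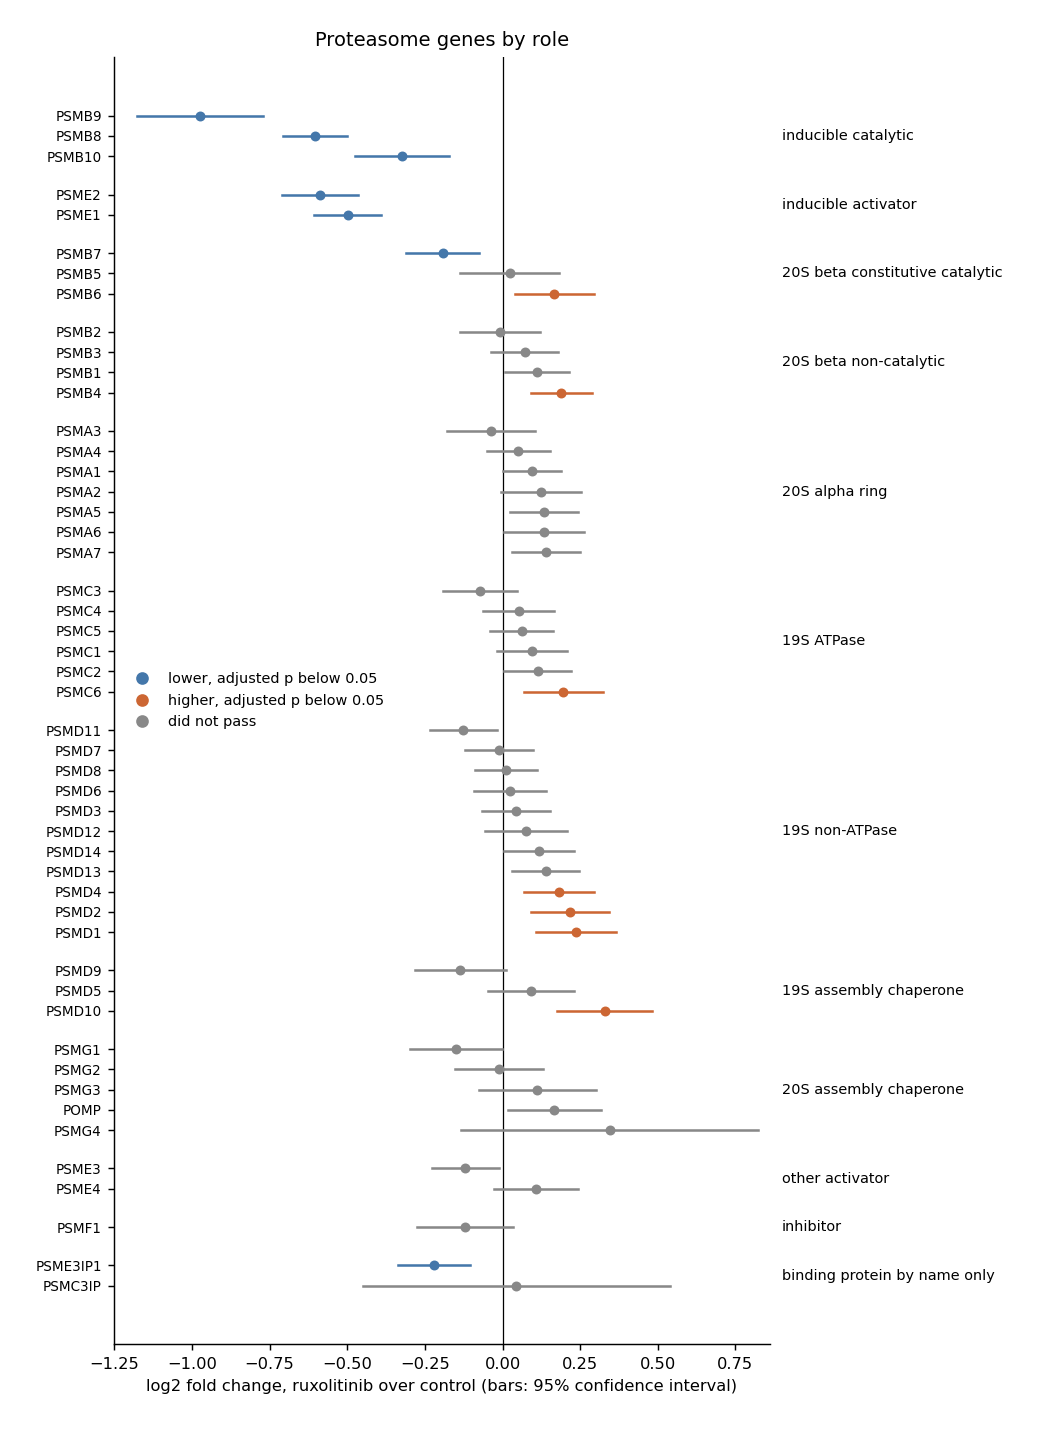
Log2 fold change, ruxolitinib over control, of the 49 members grouped by role; points are estimates from 3 libraries per group, bars are 95% confidence intervals, and colours mark the call. The 5 inducible members lie at -0.32 to -0.98, and the other 44 lie between -0.22 and 0.34.

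PSMB9 had the largest fall among the members. This beta subunit, which replaces PSMB6, lies on chromosome 6 at 32844136 to 32859585 on the plus strand (GENCODE 29, GRCh38). Its level was 19.97, 18.9 and 19.3 CPM in control replicates 1 to 3 and 9.86, 10.8 and 8.90 CPM in ruxolitinib replicates 1 to 3. Every control library was above every ruxolitinib library, as in 23.7% of all genes tested. The log2 fold change was -0.98 ± 0.09 (SE, n = 3 per group, edgeR adjusted p = 9.2e-06), and 3.41% of genes tested had a lower value.

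PSMB8, the most abundant inducible member in CPM, replaces PSMB5 and lies on chromosome 6 at 32840717 to 32844703 on the minus strand. It stood at 164, 158 and 157 CPM in control and at 105, 109 and 101 CPM with ruxolitinib. The groups did not overlap. Its log2 fold change was -0.60 ± 0.05 (n = 3 per group, edgeR adjusted p = 1.8e-06). Reads of PSMB8 and PSMB9 cannot be fully told apart, since the strand setting of the counting is not given in the sources used here. Their annotated exons share 139 bases. PSMB8-AS1, a transcript antisense to PSMB8, shares 618 exon bases with PSMB8 and 174 with PSMB9. It lies on the same strand as PSMB9, so reads in those 174 bases could not be separated by strand. PSMB8-AS1 had 2258 counts in all libraries together, against 1828 for PSMB9. PSMB8-AS1, which the naming rule left out, had 20.8, 22.8 and 21.8 CPM in control and 14.8, 12.6 and 15.9 CPM with ruxolitinib (log2 fold change -0.59 ± 0.09).

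PSMB10, the counterpart of PSMB7, fell least of the 5. It lies on chromosome 16 at 67934502 to 67937087 and shares 644 exon bases with an unnamed coding gene on its strand that had 325 counts against its own 3516. Levels were 30.5, 33.3 and 30.9 CPM in control and 25.8, 26.2 and 23.8 CPM with ruxolitinib. The groups did not overlap. This gave a log2 fold change of -0.32 ± 0.07 (n = 3 per group, edgeR adjusted p = 0.0039), and the highest adjusted p over the 17 alternatives was 0.0436.

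The activator genes PSME1 and PSME2 lie near each other on chromosome 14, at 24136158 to 24138967 on the plus strand and 24143362 to 24147570 on the minus strand. PSME1 stood at 99.2, 92.1 and 96.2 CPM in control and 68.8, 67.3 and 67.2 CPM with ruxolitinib (log2 fold change -0.50 ± 0.05, n = 3 per group, edgeR adjusted p = 1.2e-05). PSME2 stood at 85.2, 80.8 and 79.8 CPM in control and 57.7, 51.9 and 54.0 CPM with ruxolitinib (-0.59 ± 0.06, edgeR adjusted p = 9.5e-06). In both genes every control library was above every ruxolitinib library. The 95% confidence intervals of the fold changes, -0.61 to -0.39 for PSME1 and -0.71 to -0.46 for PSME2, overlapped. PSME2 has pseudogenes, of which PSME2P2 had 1.01 CPM in control and 0.800 CPM with ruxolitinib.

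**Figure D2:**
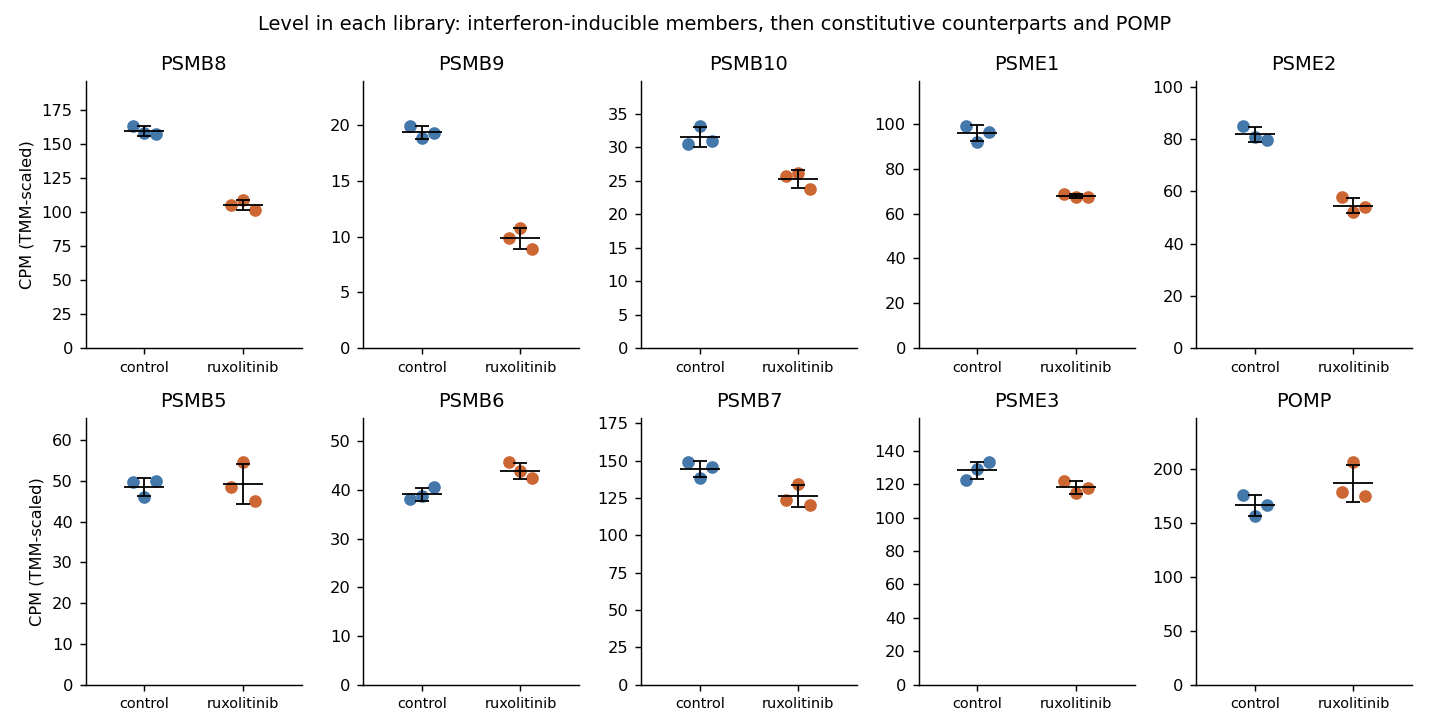
Level in each library, in TMM-scaled CPM from 0, of the 5 inducible members and of PSMB5, PSMB6, PSMB7, PSME3 and POMP; points are libraries, horizontal lines are means and error bars are SD (n = 3 per group). The groups are separate in each of the 5 inducible members, whereas those of PSMB5 and POMP overlap.

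The 3 catalytic subunits that the inducible ones replace did not move together. PSMB5, which carries the chymotrypsin-like activity, stood at 49.8, 46.0 and 49.9 CPM in control and 48.4, 54.6 and 44.9 CPM with ruxolitinib. Its groups overlapped, and the log2 fold change was 0.02 with a 95% confidence interval of -0.14 to 0.18. PSMB6, with the caspase-like activity, stood at 38.1, 38.7 and 40.7 CPM in control and 45.7, 43.8 and 42.4 CPM with ruxolitinib. Its groups did not overlap, with a log2 fold change of 0.17 ± 0.06 (n = 3 per group, edgeR adjusted p = 0.0496). The PSMB6 call was lost in 14 of 17 alternatives, among them median-ratio scaling (adjusted p = 0.0513) and the batch number as a block (0.142).

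PSMB7, with the trypsin-like activity, was called lower. It stood at 149, 138 and 146 CPM in control and 124, 135 and 121 CPM with ruxolitinib. The lowest control library, at 138 CPM, was close to the highest ruxolitinib library, at 135 CPM. The log2 fold change was -0.19 ± 0.05 (n = 3 per group, edgeR adjusted p = 0.0179). It did not pass with the batch as a block (adjusted p = 0.0751), without control replicate 1 (0.116) or 3 (0.101), without ruxolitinib replicate 1 (0.0948) or 3 (0.0632), and with batch 1 left out (0.271) or 3 (0.148).

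The balance of each inducible subunit and its counterpart was taken as a ratio of counts within a library, which needs no scaling between libraries. Per kilobase of annotated exon, the ratio of PSMB8 to PSMB5 was 1.94, 2.03 and 1.86 in control and 1.28, 1.18 and 1.33 with ruxolitinib. PSMB8 was above PSMB5 in all 6 libraries on this scale, and the groups did not overlap. The ratio of PSMB9 to PSMB6 was 0.247, 0.229 and 0.223 in control and 0.102, 0.116 and 0.0989 with ruxolitinib. PSMB9 was the minor form in all 6 libraries, and again the groups did not overlap. The ratio of PSMB10 to PSMB7 was 0.198, 0.232 and 0.205 in control and 0.200, 0.188 and 0.190 with ruxolitinib, and these groups overlapped.

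On the log2 scale the PSMB8 to PSMB5 ratio differed by -0.62 and the PSMB9 to PSMB6 ratio by -1.15 between ruxolitinib and control. Both had an two-sided p = 0.1 by an exact permutation test, which is as low as 3 against 3 libraries can go (0.15 adjusted over the 3 pairs compared). The PSMB10 to PSMB7 ratio differed by -0.13 (exact two-sided permutation p = 0.2, 0.2 adjusted). Without control replicate 2 that difference was -0.06. Ratios per length rest on the total annotated exon length of each gene, so isoforms not used in these cells shift their level but not the difference between groups.

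**Figure D3:**
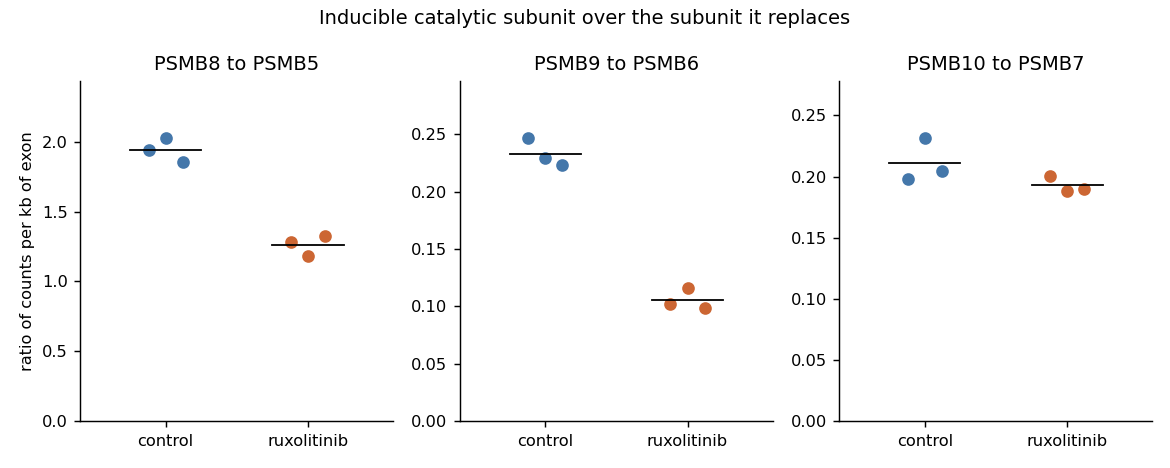
Ratio of counts per kilobase of annotated exon of each inducible catalytic subunit to the subunit it replaces, in each library, on axes from 0; points are libraries and lines are group means (n = 3 per group). The PSMB8 to PSMB5 and PSMB9 to PSMB6 ratios separate the groups, and the PSMB10 to PSMB7 ratio does not.

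Of the 7 alpha ring subunits, which gate the barrel, none was called, by edgeR, DESeq2 or limma-voom. At an unadjusted edgeR p under 0.05, 4 were higher and 0 lower. Over all genes the share under that unadjusted threshold was not counted, but it is at least the 29.7% called after adjustment. With upper-quartile scaling 3 of the 7 were called higher, PSMA1, PSMA5 and PSMA7. Without ruxolitinib replicate 3 it was also 3, PSMA2, PSMA6 and PSMA7, and with batch 3 left out 1, PSMA2. Over all genes, 4275, 3752 and 2914 were called in these settings, against 4175 in the main fit. The groups overlapped in 4 of the 7. In the other 3 every ruxolitinib library was above every control library, as in 20.5% of all genes, and 44.3% of all genes did not overlap in either direction. Their log2 fold changes ran from -0.04 to 0.14 with a median of 0.12. PSMA7 had the highest, with 193, 180 and 188 CPM in control and 204, 217 and 196 CPM with ruxolitinib. Its log2 fold change was 0.14 ± 0.05 (n = 3 per group, edgeR adjusted p = 0.0561, but 0.0227 with upper-quartile scaling and 0.028 without ruxolitinib replicate 3). PSMA6 had 0.13 ± 0.06 (edgeR adjusted p = 0.114, but 0.0324 without ruxolitinib replicate 3). PSMA3 had -0.04 ± 0.06, with a 95% confidence interval of -0.18 to 0.10.

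Of the 4 beta subunits without catalytic sites, 1 was called higher. PSMB4 stood at 175, 167 and 167 CPM in control and 192, 199 and 189 CPM with ruxolitinib, so the groups did not overlap. The log2 fold change was 0.19 ± 0.04 (n = 3 per group, edgeR adjusted p = 0.0072). It did not pass with the batch as a block (adjusted p = 0.0507) or with batch 1 left out (0.0979). PSMB1 had 0.11 ± 0.05 (edgeR adjusted p = 0.0967, but 0.0375 with upper-quartile scaling) and PSMB2 -0.01 ± 0.06.

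In the regulatory cap, 4 of 17 subunits were called higher and 0 lower, against 13.6% and 16.1% of all genes. By DESeq2 the counts were also 4 and 0, but the count of higher calls was 1 with the batch as a block (PSMD1), 0 without ruxolitinib replicate 1 or with batch 1 left out, and 2 without control replicate 1, control replicate 2 or ruxolitinib replicate 2. With upper-quartile scaling it was 7, with PSMC2, PSMD13 and PSMD14 added. Lower calls rose from 0 to 1 on unscaled library totals (PSMD11) and to 2 with batch 2 left out (PSMC3 and PSMD11). Calls over all genes also differed between settings, from 1983 with batch 1 left out to 5034 with batch 2 left out. At an unadjusted edgeR p under 0.05, 7 of the 17 were higher and 1 was lower. The share of all genes under that threshold was not counted and is at least 29.7%. The median log2 fold change of the 17 was 0.07. PSMD1, a scaffold subunit of the cap's base, stood at 130, 118 and 130 CPM in control and 151, 157 and 138 CPM with ruxolitinib. Its groups did not overlap, with a log2 fold change of 0.24 ± 0.06 (n = 3 per group, edgeR adjusted p = 0.0103). The call was lost without ruxolitinib replicate 1 (adjusted p = 0.0529) and with batch 1 left out (0.110).

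PSMD2, another scaffold subunit of the base, stood at 181, 187 and 209 CPM in control and 229, 226 and 216 CPM with ruxolitinib. The groups did not overlap, and control replicate 3 was close to ruxolitinib replicate 3. Its log2 fold change was 0.22 ± 0.06 (n = 3 per group, edgeR adjusted p = 0.0129). The call was lost with the batch as a block (adjusted p = 0.0545), without control replicate 1 (0.0802), without ruxolitinib replicate 1 (0.0703) and with batch 1 left out (0.271).

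PSMD4, a ubiquitin receptor of the cap, stood at 141, 138 and 144 CPM in control and 163, 168 and 149 CPM with ruxolitinib, without overlap (log2 fold change 0.18 ± 0.05, n = 3 per group, edgeR adjusted p = 0.0203). Its adjusted p was 0.0838 with the block, 0.0708 when control replicate 1 was left out and 0.0510 for control replicate 2, 0.0929 and 0.0518 for ruxolitinib replicates 1 and 2, and 0.247 with batch 1 left out. The ATPase gene PSMC6 had 129, 114 and 125 CPM in control and 142, 147 and 132 CPM with ruxolitinib, also without overlap (0.20 ± 0.06, edgeR adjusted p = 0.0245). Its adjusted p was 0.0805 with the block, 0.0828 when control replicate 2 was left out and 0.0546 for control replicate 3, 0.0950 and 0.0609 for ruxolitinib replicates 1 and 2, and 0.134 and 0.0812 with batch 1 or 2 left out. The cap subunits with the lowest values were PSMD11, with -0.13 ± 0.05 (edgeR adjusted p = 0.0746, but 0.0213 on unscaled library totals and 0.0340 with batch 2 left out), and the ATPase PSMC3, with -0.07 ± 0.05 (edgeR adjusted p = 0.350, but 0.0343 with batch 2 left out). PSMC2 had 0.11 ± 0.05 (edgeR adjusted p = 0.108, but 0.0417 with upper-quartile scaling) and PSMD7 -0.01 ± 0.05.

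Of 3 chaperones that assemble the cap, PSMD10, also known as gankyrin, was higher. It stood at 28.3, 27.1 and 27.6 CPM in control and 32.4, 37.7 and 34.0 CPM with ruxolitinib. Ruxolitinib replicate 2 was the highest, and the groups did not overlap. That is a log2 fold change of 0.33 ± 0.07 (n = 3 per group, edgeR adjusted p = 0.0042), and it was called in all 17 alternatives, alone among the 9 called members outside the inducible group. The other two, PSMD5 and PSMD9, had 0.09 ± 0.06 and -0.14 ± 0.07 and did not pass, although PSMD9 did with batch 2 left out (adjusted p = 0.0451).

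None of the 5 chaperones that assemble the core passed by edgeR or DESeq2, and 1 had an unadjusted edgeR p under 0.05 in each direction. At least 29.7% of all genes lie under that unadjusted threshold. POMP, the maturation factor of the core, stood at 176, 156 and 166 CPM in control and 179, 206 and 174 CPM with ruxolitinib. Its groups overlapped, with a log2 fold change of 0.17 ± 0.07 (n = 3 per group, edgeR adjusted p = 0.0913). POMP passed with upper-quartile scaling (adjusted p = 0.0470) and with no filter on low counts (0.0191). PSMG1 had -0.15 ± 0.07 (edgeR adjusted p = 0.121, but 0.0494 on unscaled library totals and 0.0456 with batch 2 left out) and PSMG2 -0.01 ± 0.06. PSMG4, whose start carries the GAAAGCGAAA letters found in 4 of the 5 inducible genes, was low, at 1.41, 1.55 and 1.35 CPM in control and 1.73, 1.77 and 1.98 CPM with ruxolitinib. Its log2 fold change was 0.34 ± 0.22, with a 95% confidence interval of -0.13 to 0.82.

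The activators outside the inducible pair and the inhibitor did not pass by edgeR or DESeq2, with 1 of the 3 lower at an unadjusted edgeR p under 0.05. At least 29.7% of all genes lie under that unadjusted threshold. PSME3, which forms a nuclear activator ring related to that of PSME1 and PSME2, stood at 123, 129 and 133 CPM in control and 122, 115 and 117 CPM with ruxolitinib. The groups did not overlap, although ruxolitinib replicate 1 was close to control replicate 1 (log2 fold change -0.12 ± 0.05, n = 3 per group, edgeR adjusted p = 0.0910, but 0.0359 on unscaled library totals). PSME4, a large single-chain activator, had 0.11 ± 0.06. The inhibitor PSMF1 had 32.2, 30.4 and 35.6 CPM in control and 30.4, 29.7 and 30.2 CPM with ruxolitinib (-0.12 ± 0.07, edgeR adjusted p = 0.225). PSME3IP1 was called lower (-0.22 ± 0.05, edgeR adjusted p = 0.0081, but 0.0733 without control replicate 3 and 0.0953 with batch 1 left out). PSMC3IP had 0.04 ± 0.23.

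Outside the inducible group the counts of calls moved with the processing. The 7 higher calls became 15 with upper-quartile scaling and 2 with the batch as a block, and the 2 lower calls became 5 on unscaled library totals and 1 with the block. Calls over all genes moved too. There were 4175 in the main fit (54.3% of them lower) and 4275 with upper-quartile scaling (45.8% lower). There were 2915 with the block (55.8% lower) and 4199 on unscaled library totals (62.4% lower). Without a single library the higher calls outside the inducible group ranged from 2, without ruxolitinib replicate 1, to 11, without ruxolitinib replicate 3. They were 4 without control replicate 1, control replicate 2 or ruxolitinib replicate 2. Over all genes, 2941 were called without ruxolitinib replicate 1 and 3752 without ruxolitinib replicate 3. Within the batches, the median log2 difference of the 44 members was 0.04, 0.17 and 0.01 in batches 1 to 3, and 35 of the 44 (79.5%) had their highest difference in batch 2, against 5262 of 13968 genes (37.7%) with counts in every library. Over those genes the median was 0.00, -0.05 and 0.01. The inducible members had medians of -0.56, -0.54 and -0.56.

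Summed over a role, the 3 inducible catalytic subunits came to 214, 211 and 208 CPM in control and 141, 146 and 134 CPM with ruxolitinib. The 3 constitutive ones summed to 237, 223 and 236 CPM in control and 218, 233 and 208 CPM with ruxolitinib, with overlap. The alpha ring summed to 1333 ± 47.5 CPM in control and 1429 ± 76.5 CPM with ruxolitinib (SD, n = 3). The PSMC ATPases summed to 839 ± 30.4 and 888 ± 35.1 CPM.

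Levels per length, which divide by the total annotated exon length of a gene, differed widely between subunits that sit together in one particle. Annotated length enters this spread, and isoforms not used in these cells shift it. PSMA2 and PSMA7, at 131 and 187 CPM in control, have 5336 and 1750 annotated exon bases. PSMA2 also shares 781 exon bases with an unnamed coding gene on its strand, which had 3125 counts against 16671 for PSMA2. In control, CPM per kilobase of exon ran from 24.6 (PSMA2) to 107 (PSMA7) in the alpha ring, and from 10.03 (PSMB2) to 83.4 (PSMB3) among beta subunits without catalytic sites. POMP, at 116, was the highest member on this scale, and PSMG4, at 0.138, the lowest. The inducible members ran from 6.30 (PSMB9) to 53.8 (PSME1) in control and from 3.20 to 38.1 with ruxolitinib. The order PSME1, PSMB8, PSME2, PSMB10 and PSMB9 was the same in both groups, with PSME1 and PSMB8 at 53.8 and 53.4 in control. In CPM without length, PSMB8 was above PSME1, at 160 against 95.8 in control.

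**Figure D4:**
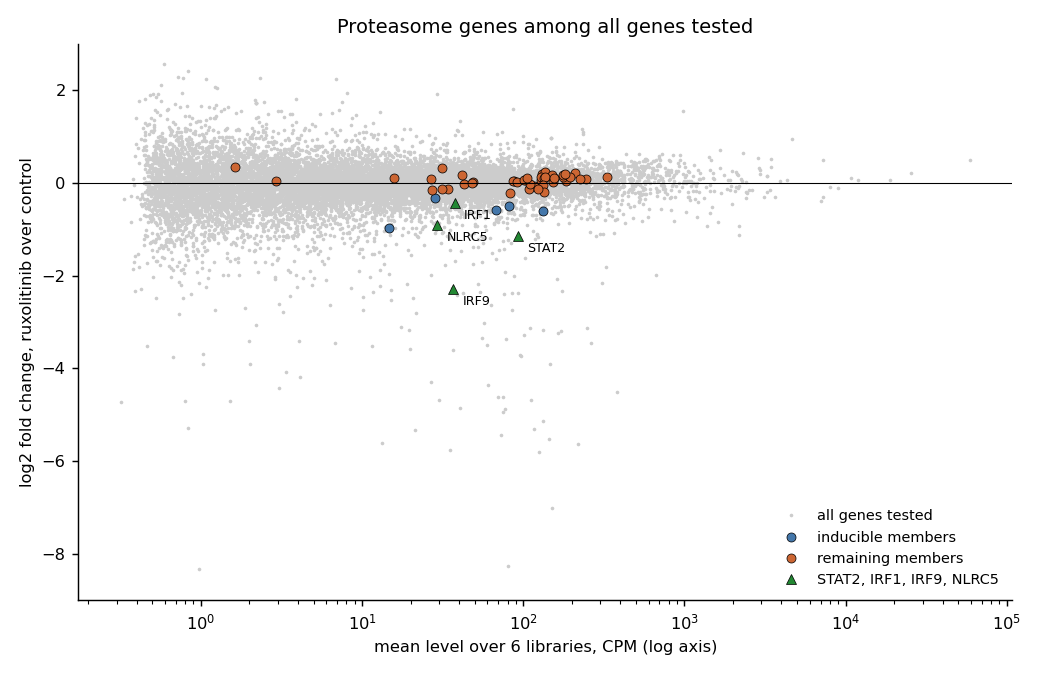
Mean level over 6 libraries in CPM (log axis) against log2 fold change, ruxolitinib over control, for the 14051 genes tested (grey), the 5 inducible members, the 44 other members and 4 genes that act in or after interferon signalling (green triangles). The inducible members lie between -0.32 and -0.98, and IRF9 at -2.29 lies further down.

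Of the factors known to switch on the inducible members, 4 are described here, and all 4 fell, against 16.1% of all genes called lower. IRF9, which gives its complex with STAT2 its DNA binding, stood at 61.5, 61.2 and 61.1 CPM in control and 12.5, 11.6 and 13.6 CPM with ruxolitinib. Its log2 fold change was -2.29 ± 0.07 (n = 3 per group, edgeR adjusted p = 1.7e-10). STAT2 stood at 126, 132 and 123 CPM in control and 59.6, 49.6 and 63.7 CPM with ruxolitinib (-1.14 ± 0.08). The groups overlapped in neither gene. NLRC5, the transactivator of MHC class I genes, stood at 33.0, 46.8 and 34.7 CPM in control and 18.5, 20.3 and 22.9 CPM with ruxolitinib (-0.90 ± 0.15, edgeR adjusted p = 0.0039). IRF1 fell least, by 0.42 ± 0.06 on the log2 scale, from 44.2, 41.9 and 43.0 to 31.7, 32.1 and 32.4 CPM. The median of these 4 log2 fold changes was -1.02.

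Of 12 genes for peptide trimming and loading, 7 fell, 0 rose and 5 did not pass, with a median of -0.17. The 5 that did not pass had log2 fold changes of -0.14 (NRDC), -0.08 (B2M), 0.03 (BLMH), 0.10 (NPEPPS) and 0.33 (THOP1). Across all genes tested, 16.1% were called lower and 13.6% higher. LAP3, a cytosolic aminopeptidase, had -2.01 ± 0.06, TAP1 -0.87 ± 0.05, TAP2 -0.69 ± 0.05 and TAPBP, which bridges the transporter and MHC class I, -0.67 ± 0.08. Along chromosome 6 the TAP genes enclose PSMB8. In order, TAP2, PSMB8, PSMB8-AS1, PSMB9 and TAP1 were called lower in each case. HLA-DOB, also within 25 kilobases of PSMB8 and PSMB9, was called lower as well (-1.19 ± 0.40, edgeR adjusted p = 0.0429), and 1 unnamed gene there did not pass (0.43 ± 0.18). HLA-DOB was low, at a mean of 1.29 CPM in control and 0.57 CPM with ruxolitinib. Within 25 kilobases of both PSME1 and PSME2, IRF9 and an unnamed gene that spans it fell, the latter with a log2 fold change of -1.40 ± 0.33. REC8, within that distance of PSME2 only, fell by 2.06 ± 0.21. The other neighbours RNF31, DCAF11 and EMC9 did not pass, with -0.33 ± 0.16, -0.19 ± 0.08 and -0.01 ± 0.24. Near PSMB10, SLC12A4, PSKH1 and LCAT did not pass.

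**Figure D5:**
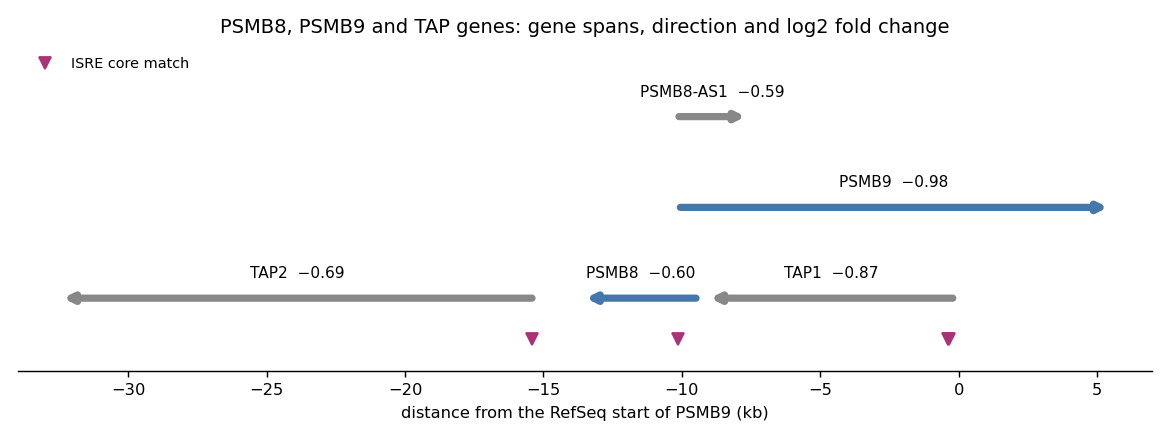
Gene spans in GENCODE 29 around PSMB8 and PSMB9, as distance in kilobases from the RefSeq start of PSMB9; arrows give the direction of transcription, numbers are log2 fold changes (ruxolitinib over control) and triangles mark ISRE core matches in the windows searched. All 5 genes shown had values between -0.59 and -0.98.

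NFE2L1, which drives proteasome genes when degradation is impaired, and its relative NFE2L2 went opposite ways. NFE2L1 stood at 120, 133 and 125 CPM in control and 111, 100 and 114 CPM with ruxolitinib (log2 fold change -0.22 ± 0.06, n = 3 per group, edgeR adjusted p = 0.0160). NFE2L2 had 324, 304 and 323 CPM in control and 359, 385 and 341 CPM with ruxolitinib (0.19 ± 0.05, edgeR adjusted p = 0.0168). Within batches 1 to 3 the log2 differences were -0.11, -0.40 and -0.14 for NFE2L1, and 0.15, 0.34 and 0.08 for NFE2L2. Neither call was checked in the alternative analyses. Of the 6 genes of this axis, which also holds NGLY1 and the small MAF genes, 1 fell, 1 rose and 4 did not pass. Among all genes tested, 16.1% were called lower and 13.6% higher.

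Most genes that work with the proteasome did not pass, which also held for all genes tested. Of those, 29.7% were called, 16.1% lower and 13.6% higher. Of 11 proteasome-associated genes, 1 rose, 1 fell and 9 did not pass, with a median of 0.02. ADRM1, a ubiquitin receptor of the cap, had 0.23 ± 0.05 (edgeR adjusted p = 0.0045), and the cap's deubiquitinase UCHL5, which binds ADRM1, had -0.22 ± 0.06 (edgeR adjusted p = 0.0181). Of 9 ubiquitin shuttle and extraction genes, 1 rose, the segregase gene VCP (0.23 ± 0.04), and 8 did not pass. Of 4 ubiquitin and ubiquitin-activating genes, 2 rose and 2 did not pass. RPS27A, which encodes ubiquitin fused to a ribosomal protein, had 0.45 ± 0.06 (edgeR adjusted p = 8.5e-05), and the polyubiquitin gene UBB had 0.16 ± 0.05 (edgeR adjusted p = 0.0235). The ubiquitin-activating enzyme genes UBA1 and UBA6 had 0.10 ± 0.05 and 0.02 ± 0.05.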

How the data were processed

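The values are raw gene-level counts that the authors deposited as 1 table with a column for each library. The build was hg38 per the submitters' processing notes, and per the labels' protocols the RNA was poly-A selected. Aligner, counter, annotation release and strand setting: not given in the sources used here. Columns were matched to samples by title and groups were taken from the treatment label. Gene coordinates, exon lengths and overlaps came from GENCODE 29, in which 58340 of 61517 gene identifiers were found.

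Counts were tested with edgeR 4.0.16 in R 4.3.3 (glmQLFit and glmQLFTest, robust), with TMM factors and filterByExpr (minimum count 10, minimum total 15). Benjamini-Hochberg adjustment ran over 14051 genes, and a gene was called under 0.05. SE is the size of the coefficient over the root of F. A count of 0 was taken to allow up to 3 counts, and such limits cover counting error only. The procedure was also run on simulated counts with few changed genes and no batch effect. That run does not cover how calls depend on batch or scaling in these data.

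A batch label, 1 to 3, joins 1 control and 1 ruxolitinib library, and this label is the source of the pairing. On log2(CPM + 2), the libraries of a batch deviated from their group means with correlations of -0.04, -0.37 and -0.23. The unblocked fit is the main one. Alternatives were median-ratio, upper-quartile and no factors, DESeq2 1.42.0, limma-voom (limma 3.58.1), no filter or a filter of 1 CPM in 3 libraries, the batch as a block, and leaving out each library or batch. For single genes they were read out for members only, so calls of other named genes were not checked this way.

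The members, gene lists and motifs were chosen with earlier results of these data known. The rule for values per library took the inducible members, PSMB5, PSMB6, PSMB7, PSME3 and POMP, and the 2 largest rises and 2 largest falls of each role group, which are given here as ranges or fold changes where they did not pass. Pathway lists took up to 4 genes by adjusted p, and the interferon signal genes. Some genes of these lists are not reported here, and the lists' counts and medians leave them out. PSMD4, PSME3IP1, PSMC3IP, PSMB8-AS1, PSME2P2 and the genes near the inducible members were named after their values were seen. The peptide trimming and loading genes that did not pass were also named after their values were seen.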

Additional observations from a re-analysis of the deposited data

How the results depend on the processing

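Among 17 alternative analyses, the 5 inducible members were called lower in each. Counts of other calls moved. With upper-quartile scaling 15 members were called higher, all outside the inducible group, and with library totals alone 5 of the other 44 were called lower. With the batch as a replicate block 2 were called higher and 1 of the other 44 lower. Over all genes, 4275, 4199 and 2915 were called in these settings, against 4175 in the main fit. Leaving out a library or both libraries of a batch gave 1 to 11 members called higher, 5 to 11 called lower, and 0 to 6 of the other 44 called lower. Over all genes, 1983 (without both libraries of batch 1) to 5034 (without both of batch 2) were called. The cause was not tested. The ratios kept their direction without any single library, at -0.66 to -0.57 for PSMB8 to PSMB5, -1.22 to -1.10 for PSMB9 to PSMB6 and -0.18 to -0.06 for PSMB10 to PSMB7. With batches as pairs, the replicate block left the ratio differences at -0.62, -1.15 and -0.13 and gave exact sign-flip permutation p = 0.25, 0.25 and 0.5, where 0.25 is the smallest that 3 pairs allow.

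Members near 0 changed sign. PSMG2 and PSMB2 were at 4.4e-04 and 0.0031 with median-ratio factors, 3.9e-04 and 0.0030 by DESeq2, and 0.0235 and 0.0265 with upper-quartile factors. PSMD7 was at 0.0229 with upper-quartile factors and PSMB5 at -0.0134 on unscaled library totals. Without a library or a batch, PSMG2 ranged from -0.0801 to 0.0380, PSMB2 from -0.0681 to 0.0509, PSMD7 from -0.0536 to 0.0494, PSMA3 from -0.13 to 0.0248, PSMB5 from -0.0944 to 0.11 and PSMC3IP from -0.25 to 0.21. PSMG4 and PSMC3IP had the fewest counts of the members, and their intervals are the widest.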
